A study of Mus musculus with 12 samples.

Results

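The genes described here are 10 regulators of the KEAP1-NRF2 pathway, chosen by name from the 54532 genes of the deposited expression table. No measured value entered the rule, but the choice was made with earlier results of these data known. They are the CUL3-KEAP1 ubiquitin ligase (Keap1, Cul3 and Rbx1), the transcription factors NRF2 and NRF1 (Nfe2l2 and Nfe2l1), the small MAF proteins with which these factors dimerize (Mafg, Mafk and Maff), the repressor BACH1 (Bach1) and the F-box protein β-TrCP (Btrc). All 10 were in the table and all 10 passed the filter on low counts. C2C12 cells, a mouse myoblast line, received siRNA for 48 h in 4 groups, namely siCONTROL (a non-targeting control), siKEAP1 (targeting Keap1), siCCNF (targeting Ccnf) and siKEAP1/siCCNF (targeting both), and poly(A)-selected RNA was sequenced from 3 biological replicates per group, 12 libraries in all. Ccnf encodes cyclin F, the substrate receptor of an SCF ubiquitin ligase. No group carried a genetic deletion, so every comparison is between transiently depleted cells of 1 line in which part of the target mRNA remained. Which of the study's Ccnf siRNAs was sequenced is not given in the sources used here.

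KEAP1 is the substrate receptor that brings NRF2 to CUL3 and RBX1, and oxidants or electrophiles that modify KEAP1 stop the ubiquitylation of NRF2. NRF2 then pairs with a small MAF protein at antioxidant response elements and activates genes of glutathione synthesis, NADPH production and detoxification. BACH1 occupies the same elements with the same partners and represses them, β-TrCP is the receptor of a KEAP1-independent route of NRF2 degradation, and NRF1 is a related factor best known for the induction of proteasome genes. NRF2 and NRF1 are regulated to a large extent at the level of the protein, which RNA sequencing does not measure.

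The libraries held 18464209 to 37743198 counts, and every siCCNF library was deeper than every siCONTROL library, so levels are given as CPM (the count of a gene scaled to a common total, with TMM factors). In siCONTROL library 1 and siKEAP1/siCCNF library 3, the deviations from their group means were related to gene length across the 15122 genes tested (Pearson r = -0.31 and -0.28, against -0.09 to 0.21 in the other 10 libraries, with genes that are not independent replicates). Results that these libraries decide are given below without them, a setting chosen after the data were seen. Ccnf stood at 81.1 ± 3.99 CPM (SD, n = 3) with siCONTROL, 59.4 ± 4.83 with siKEAP1, 20.5 ± 0.778 with siCCNF and 24.5 ± 1.01 with both siRNAs. The 8 myoblast markers, among them Myod1, Myf5 and Des, were detected in every group, and their summed level was 1727 to 1871 CPM in siCONTROL libraries, 1130 to 1163 after siKEAP1, 915 to 928 after siCCNF and 865 to 914 after siKEAP1/siCCNF. The 10 markers of differentiating muscle summed to 59.0 to 140.1 CPM in siCONTROL libraries, 4.03 to 4.78 after siKEAP1, where Myh8 and Ckm were at 0, 18.5 to 26.4 after siCCNF and 7.95 to 8.65 after siKEAP1/siCCNF. The 6 macrophage markers summed to at most 12.4 CPM with Itgam at 0 in all libraries, and this sum was 3.23 to 4.44 CPM in siCONTROL libraries, 7.25 to 12.4 after siKEAP1, 7.81 to 9.41 after siCCNF and 6.15 to 9.71 after siKEAP1/siCCNF. The 5 endothelial markers summed to at most 2.32 CPM and the 4 adipocyte markers to at most 0.0877 CPM. The sums of the muscle and macrophage markers thus moved with every depletion, without overlap with siCONTROL, and the part of these markers in the differences below was not tested. Single markers did not all follow the sums. After siKEAP1, 7 of the 8 myoblast markers were lower and Met was higher (log2 fold change 0.48, adjusted p under 0.05 in edgeR). Of the 3 macrophage markers tested, 1 was then higher (2.90) and 1 lower, where 20.4% of all genes were higher and 20.2% lower. In these bulk libraries, fewer cells of a type and less of an mRNA per cell cannot be told apart.

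Relative to gene length, the NRF factors were the most abundant of these mRNAs in siCONTROL cells. On the scale of the deposited FPKM values, Nfe2l1 stood at 73.7 ± 3.14 (SD, n = 3), Nfe2l2 at 44.6 ± 1.12, Cul3 at 32.1 ± 1.21, Rbx1 at 31.6 ± 4.04 and Keap1 at 18.6 ± 0.689. The partners and repressors followed, with Mafg at 15.9 ± 0.710, Bach1 at 8.15 ± 0.736, Maff at 4.88 ± 0.0629, Mafk at 4.43 ± 0.212 and Btrc at 1.46 ± 0.0627. Cul3 and Rbx1 overlapped between libraries and were the only neighbours in this order that did. Each depletion changed the order. After siKEAP1, Mafg rose to the third place with 30.2 ± 0.734 FPKM, overlapping Cul3 at 30.0 ± 1.33, and Keap1 was ninth with 2.68 ± 0.0583. After siCCNF, Mafk at 6.0 ± 0.357 FPKM stood above Maff at 3.06 ± 0.956, without overlap. After siKEAP1/siCCNF, Rbx1 at 29.9 ± 3.43, Nfe2l2 at 28.7 ± 0.499 and Cul3 at 28.6 ± 1.35 FPKM stood next to each other in this order, and Nfe2l2 overlapped with both. The plot of all 10 mRNAs by library shows the CPM values behind the comparisons.

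**Figure D1:**
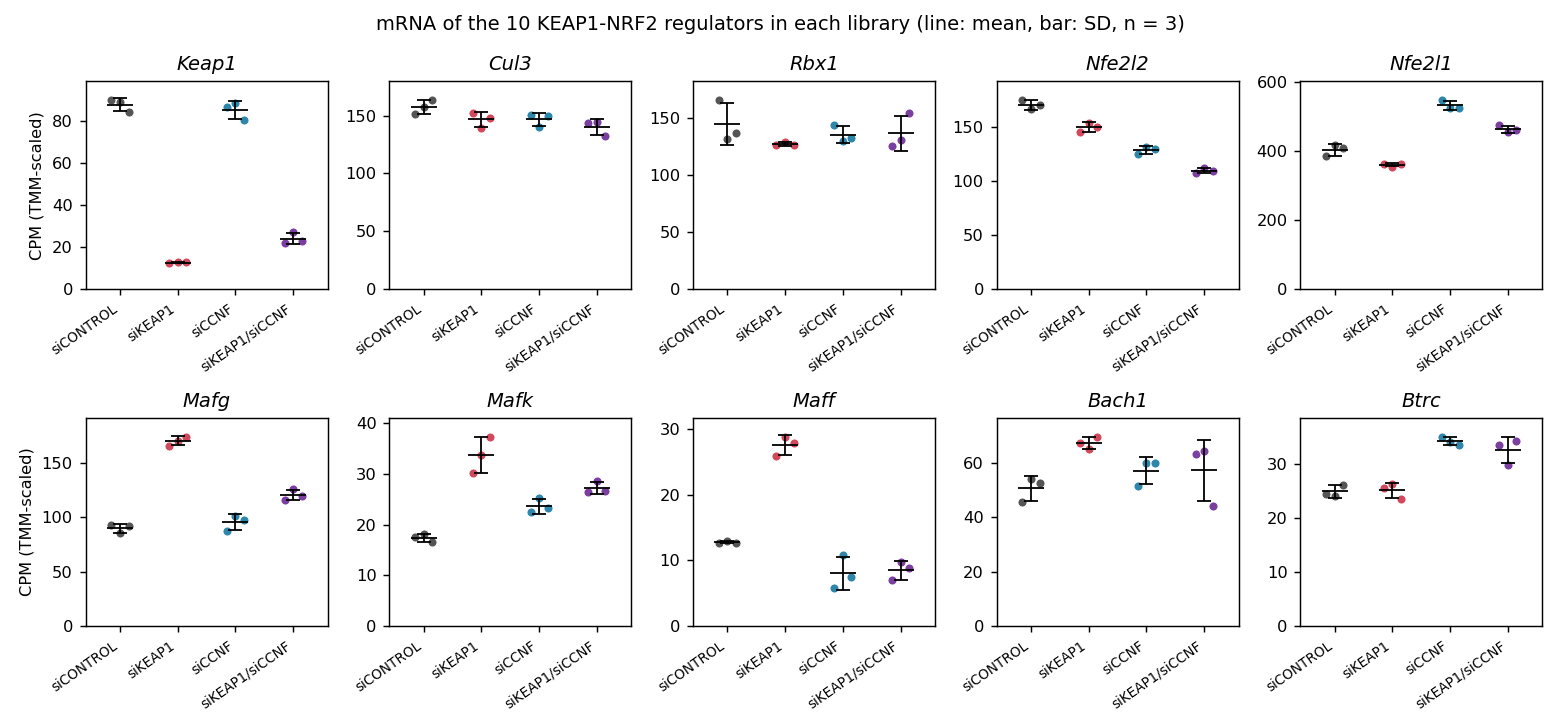
CPM of each of the 10 regulators (vertical axis, from 0, TMM-scaled) in the 3 libraries of each siRNA group (horizontal axis); points are libraries, lines the mean and bars the SD. Keap1 was near 12.6 CPM after siKEAP1 and near 24.1 CPM after siKEAP1/siCCNF, Maff was highest in the siKEAP1 libraries, and Cul3 and Rbx1 overlapped between most groups.

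Of the 3 parts of the CUL3-KEAP1 ligase, Keap1 was the one whose mRNA differed more than 2-fold in a comparison, and Cul3 and Rbx1 differed by little in all of them. Keap1 (ENSMUSG00000003308, GRCm38 chromosome 9 from 21229730 to 21239361, minus strand) was measured at 90.0, 89.0 and 84.3 CPM in the siCONTROL libraries, 12.3, 12.8 and 12.7 in those of siKEAP1, 86.5, 88.6 and 80.3 in those of siCCNF and 22.2, 27.0 and 23.1 in those of siKEAP1/siCCNF. Every double-depleted library thus held more Keap1 mRNA than every siKEAP1 library, and the siCCNF libraries overlapped with the controls. Since Keap1 was the target, its fall checks the labels and is no finding. Its log2 fold change against siCONTROL was -2.80 (SE 0.085) after siKEAP1, -0.04 (SE 0.076) after siCCNF and -1.86 (SE 0.080) after siKEAP1/siCCNF. The incomplete depletion in the last group stands beside every comparison of siKEAP1/siCCNF with siKEAP1, and its part in them was not tested. An antisense gene, Gm16754, overlaps Keap1 and held 16 to 63 counts per library, against 265 to 3035 for Keap1. Whether the counting used strand is not given in the sources used here.

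Cul3, the cullin scaffold (chromosome 1, 80264923 to 80340480, minus strand), ranged from 132 to 163 CPM over all 12 libraries. Its log2 fold change was -0.10 (SE 0.063, adjusted p = 0.22) after siKEAP1, -0.10 (SE 0.063, adjusted p = 0.20) after siCCNF and -0.17 (SE 0.063, adjusted p = 0.045) after siKEAP1/siCCNF, by the quasi-likelihood test of edgeR after Benjamini-Hochberg adjustment. The last call was lost without any 1 of 10 libraries, with log2 fold changes of -0.20 to -0.13, and without both libraries that followed gene length all 3 differences were called (-0.14, -0.13 and -0.16). Rbx1, the RING subunit that binds the E2 enzyme (chromosome 15, 81466296 to 81476369, plus strand), stood at 145 ± 18.5 CPM with siCONTROL, 127 ± 1.56 with siKEAP1, 136 ± 7.19 with siCCNF and 137 ± 15.3 with both siRNAs. No difference of Rbx1 passed the test, and the spread in the siCONTROL and siKEAP1/siCCNF groups came from siCONTROL library 1 with 166 CPM and siKEAP1/siCCNF library 3 with 154 CPM. The FPKM ratio of Cul3 to Keap1 was 1.73 ± 0.127 (SD, n = 3) in siCONTROL and 1.66 ± 0.139 in siCCNF cells. It was 11.2 ± 0.719 after siKEAP1 and 5.63 ± 0.547 after siKEAP1/siCCNF. Since Keap1 was the target and Cul3 differed by little, this rise restates the fall of Keap1 and is no separate finding.

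Nfe2l2, which encodes NRF2, was lower in every depletion, while Nfe2l1, which encodes NRF1, was higher in cells depleted of CCNF. Nfe2l2 (chromosome 2, 75675513 to 75704641, minus strand) was measured at 175, 166 and 170.1 CPM in the siCONTROL libraries, 145, 154 and 150.2 in those of siKEAP1, 125, 132 and 129 in those of siCCNF and 108, 112 and 109 in those of siKEAP1/siCCNF. None of the 4 groups overlapped with another. The mRNA fell by 0.19 on the log2 scale after siKEAP1 (SE 0.053, adjusted p = 0.013), by 0.41 after siCCNF (SE 0.053, adjusted p = 3.75e-05) and by 0.64 after siKEAP1/siCCNF (SE 0.053, adjusted p = 9.26e-07, all from edgeR). The siKEAP1 effect in CCNF-depleted cells was a log2 fold change of -0.23 (SE 0.053, adjusted p = 0.024), and it differed from that without CCNF depletion by -0.04 (SE 0.075, adjusted p = 0.73). The call after siKEAP1 was lost without siKEAP1 library 1 (log2 fold change -0.17), and the call of siKEAP1/siCCNF against siCCNF was lost without any 1 of the siCCNF libraries or of siKEAP1/siCCNF libraries 1 and 2 (-0.26 to -0.22).

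Nfe2l1 (chromosome 11, 96817414 to 96829968, minus strand) was measured at 385, 417 and 410.2 CPM in the siCONTROL libraries, 364, 355 and 364 in those of siKEAP1, 548, 527 and 525 in those of siCCNF and 475, 455 and 460.4 in those of siKEAP1/siCCNF. All 6 CCNF-depleted libraries lay above all 6 of the others. The log2 fold change was 0.40 after siCCNF (SE 0.054, adjusted p = 5.12e-05), 0.20 after siKEAP1/siCCNF (SE 0.054, adjusted p = 0.010) and 0.36 for siKEAP1/siCCNF against siKEAP1 (SE 0.054, adjusted p = 0.00011, all from edgeR). After siKEAP1 it was -0.16 (SE 0.054, adjusted p = 0.029), a call that was lost without siCONTROL library 2 or 3 or any 1 of the siKEAP1 libraries (-0.17 to -0.15). The siKEAP1 effect in CCNF-depleted cells, -0.20 (adjusted p = 0.049 from edgeR), was lost without any 1 of 11 libraries (-0.22 to -0.19). The interaction for Nfe2l1 was -0.04 (SE 0.077, adjusted p = 0.77).

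The balance of both mRNAs was shifted towards Nfe2l1 in all libraries that received siCCNF. The FPKM ratio of Nfe2l1 to Nfe2l2 was 1.53, 1.75 and 1.68 in the siCONTROL libraries and 1.75, 1.61 and 1.69 in the siKEAP1 libraries. In the siCCNF libraries it was 3.05, 2.79 and 2.83, and in the siKEAP1/siCCNF libraries 3.07, 2.83 and 2.93. Every library with siCCNF had a higher ratio than every library without it, whereas siCONTROL overlapped with siKEAP1 and siCCNF with siKEAP1/siCCNF. This ratio was computed after the values of both genes were seen, and it was given no test.

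All 3 small MAF mRNAs rose after siKEAP1, and for each of them this rise was smaller in cells depleted of CCNF. Mafg (chromosome 11, 120625117 to 120633600, minus strand) was measured at 92.5, 85.1 and 92.2 CPM in the siCONTROL libraries, 166, 170.3 and 174 in those of siKEAP1, 87.5, 101 and 97.5 in those of siCCNF and 116, 125 and 119.7 in those of siKEAP1/siCCNF. The siKEAP1 libraries lay highest, the double-depleted ones between them and the others, and siCCNF overlapped with siCONTROL. Mafk (chromosome 5, 139791513 to 139802653, plus strand) was measured at 17.6, 18.1 and 16.6 CPM in the siCONTROL libraries, 30.2, 33.7 and 37.3 in those of siKEAP1, 22.4, 25.2 and 23.2 in those of siCCNF and 26.3, 28.6 and 26.6 in those of siKEAP1/siCCNF. The 4 groups of Mafk did not overlap. Maff (chromosome 15, 79346621 to 79359076, plus strand) was measured at 12.7, 12.9 and 12.7 CPM in the siCONTROL libraries, 26, 28.9 and 27.9 in those of siKEAP1, 5.82, 10.8 and 7.46 in those of siCCNF and 6.94, 9.70 and 8.79 in those of siKEAP1/siCCNF. All 6 CCNF-depleted libraries of Maff lay below the siCONTROL libraries and overlapped with each other.

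In edgeR's test, siKEAP1 raised Mafg 1.89-fold (log2 fold change 0.92, SE 0.068, adjusted p = 2.56e-07), Mafk 1.94-fold (0.95, SE 0.090, adjusted p = 2.44e-06) and Maff 2.16-fold (1.11, SE 0.18, adjusted p = 0.00021). After siCCNF alone the calls differed in direction. Mafk rose (log2 fold change 0.44, SE 0.090, adjusted p = 0.0013), Maff fell (-0.68, SE 0.18, adjusted p = 0.0075), and Mafg was at 0.09 (SE 0.067, adjusted p = 0.32). After siKEAP1/siCCNF, Mafg and Mafk were higher than in siCONTROL cells (0.42 and 0.64, adjusted p = 0.00022 and 7.52e-05) and Maff was lower (-0.58, adjusted p = 0.019 in edgeR). The fall of Maff after siKEAP1/siCCNF was no longer called without siKEAP1/siCCNF library 1 (-0.46).

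Addition of siCCNF to siKEAP1 lowered all 3, with log2 fold changes of -0.50 for Mafg (SE 0.067, adjusted p = 4.00e-05), -0.31 for Mafk (SE 0.087, adjusted p = 0.0091) and -1.70 for Maff (SE 0.18, adjusted p = 4.78e-06, all from edgeR). Without siKEAP1 library 3 the fall of Mafk was -0.23 and was not called. In CCNF-depleted cells, siKEAP1 gave log2 fold changes of 0.34 for Mafg (SE 0.067, adjusted p = 0.011), 0.20 for Mafk (SE 0.087, adjusted p = 0.23) and 0.10 for Maff (SE 0.18, adjusted p = 0.85). The value for Mafg was not called without siCCNF library 1 (0.27) or siKEAP1/siCCNF library 2 (0.29). The interaction is how much the siKEAP1 effect differed once CCNF was depleted as well, and it was -0.58 for Mafg (SE 0.095, adjusted p = 0.00082), -0.75 for Mafk (SE 0.13, adjusted p = 0.00097) and -1.02 for Maff (SE 0.25, adjusted p = 0.012). These interactions were called without any 1 library and without both libraries that followed gene length. Keap1 itself had an interaction of 0.98 (SE 0.11, adjusted p = 6.99e-05), as it was depleted less in the double-depleted cells.

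Mafg overlaps Sirt7, a gene on the same strand whose counts were 386 to 1339 per library against 1569 to 4205 for Mafg. Sirt7 was itself higher after siKEAP1 (log2 fold change 0.43, adjusted p = 0.00042), siCCNF (0.74, adjusted p = 3.11e-06) and siKEAP1/siCCNF (0.74, adjusted p = 3.77e-06 in edgeR), and how reads of the overlap were assigned is not given in the sources used here.

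**Figure D2:**
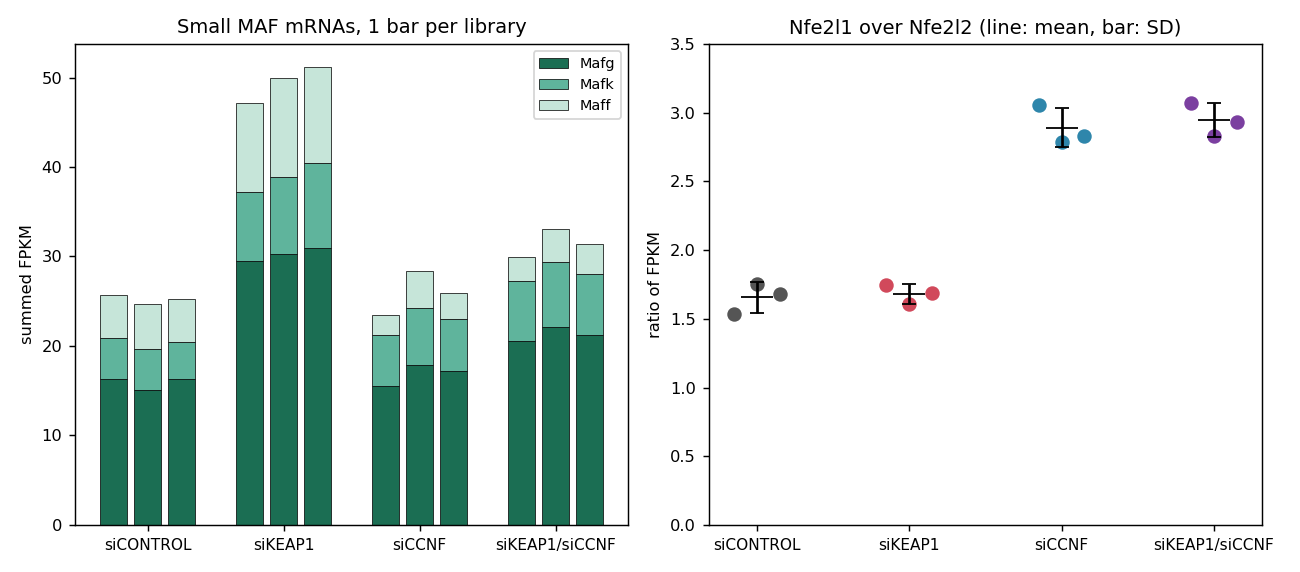
Left, summed FPKM of Mafg, Mafk and Maff (vertical axis, from 0) with 1 stacked bar for each of the 3 libraries of a group. Right, FPKM ratio of Nfe2l1 to Nfe2l2 in each library (points) with the mean (line) and SD (bar). The siKEAP1 bars are the tallest, at 47.2 to 51.2 FPKM, and the ratio is 2.79 or more in all libraries with siCCNF and 1.75 or less in all others.

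The pool of small MAF mRNA, summed per length, followed these changes, as the stacked bars of FPKM show. It was 25.2 ± 0.523 FPKM (SD, n = 3) with siCONTROL, 49.4 ± 2.07 with siKEAP1, 25.9 ± 2.45 with siCCNF and 31.5 ± 1.59 with both siRNAs. Mafg made up 60.4 to 68.7% of the pool in every library. The share of Maff was 18.9 to 20.1% in siCONTROL and 21 to 22.2% in siKEAP1 libraries, against 9.51 to 14.5% after siCCNF and 8.89 to 11.2% after siKEAP1/siCCNF. Mafk made the opposite shift, from 16.4 to 18.7% of the pool without siCCNF to 21.6 to 24.3% with it.

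The promoters of the small MAF genes and of Nfe2l2 are shown because these 4 were the ones among the regulators that held the core of an antioxidant response element, TGACNNNGC, on either strand within 250 bases before an annotated start. Of the 9 regulators with a window in the RefSeq promoter table (GRCm38.p6), 4 held the motif, compared with 11.5% of all 27025 genes with a window and 10.2% of all 32851 windows. Keap1, Cul3, Rbx1, Nfe2l1 and Bach1 did not hold these letters in their windows, and Btrc had no window in the table. Sequences are given 5′ to 3′ on the strand of the gene, in lower case with the motif in capitals.
Nfe2l2, chr2:75704664-75704913, minus strand: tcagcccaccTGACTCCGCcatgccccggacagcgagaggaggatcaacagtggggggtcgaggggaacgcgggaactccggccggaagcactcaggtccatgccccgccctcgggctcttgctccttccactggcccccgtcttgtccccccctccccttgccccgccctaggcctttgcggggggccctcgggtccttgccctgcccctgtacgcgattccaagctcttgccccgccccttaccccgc
Mafg, chr11:120633548-120633797, minus strand: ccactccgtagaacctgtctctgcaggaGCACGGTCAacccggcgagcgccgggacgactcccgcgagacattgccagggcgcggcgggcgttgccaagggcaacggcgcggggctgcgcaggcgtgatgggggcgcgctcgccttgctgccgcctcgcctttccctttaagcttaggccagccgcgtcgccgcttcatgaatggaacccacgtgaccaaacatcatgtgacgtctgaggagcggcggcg
Mafk, chr5:139791286-139791535, plus strand: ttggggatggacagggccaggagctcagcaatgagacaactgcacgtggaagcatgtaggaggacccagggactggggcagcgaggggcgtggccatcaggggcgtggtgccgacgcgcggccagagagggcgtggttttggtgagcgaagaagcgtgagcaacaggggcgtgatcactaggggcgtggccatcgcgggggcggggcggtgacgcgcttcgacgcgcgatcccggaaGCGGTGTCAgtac
Maff, chr15:79346371-79346620, plus strand: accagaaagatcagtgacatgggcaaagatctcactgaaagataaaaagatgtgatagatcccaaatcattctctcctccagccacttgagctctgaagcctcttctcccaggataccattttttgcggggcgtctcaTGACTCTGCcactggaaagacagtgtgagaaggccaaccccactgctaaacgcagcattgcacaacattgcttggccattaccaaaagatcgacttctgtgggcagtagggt
The motif reads on the strand of the gene in Nfe2l2, 240 to 232 bases before the start, and in Maff, 112 to 104 bases before the first of its 3 annotated starts. It reads on the opposite strand in Mafg, 222 to 214 bases before the start, and in Mafk, 13 to 5 bases before it. A match of these letters is a description of sequence, and no binding was measured here. The genes with the motif did not move alike, since Nfe2l2 was lower after siKEAP1 and the 3 small MAF mRNAs were higher.

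Of the antagonists of NRF2, Bach1, which acts at the target gene, passed the test after siKEAP1, and Btrc, which acts on the protein, passed it after siCCNF and siKEAP1/siCCNF. Bach1 (chromosome 16, 87698945 to 87733346, plus strand) was measured at 45.5, 54.1 and 52.6 CPM in the siCONTROL libraries, 67.2, 65.1 and 69.6 in those of siKEAP1, 51.5, 59.8 and 60.0 in those of siCCNF and 63.4, 64.2 and 44.1 in those of siKEAP1/siCCNF. The siKEAP1 libraries lay above all others, and siKEAP1/siCCNF library 3 lay below every siCONTROL library. Bach1 rose after siKEAP1 (log2 fold change 0.41, SE 0.13, adjusted p = 0.020 from edgeR), but this call was lost without siCONTROL library 1 (0.32), siKEAP1 library 1 (0.40) or siKEAP1 library 3 (0.38). Its log2 fold change was 0.17 (SE 0.13, adjusted p = 0.28) after siCCNF and 0.18 (SE 0.13, adjusted p = 0.28) after siKEAP1/siCCNF. The latter was called without siKEAP1/siCCNF library 3 (0.33) and without both libraries that followed gene length (0.25, adjusted p = 0.0089 in edgeR). The interaction for Bach1 was -0.40 (SE 0.18, adjusted p = 0.13), and -0.17 without these 2 libraries.

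Btrc (chromosome 19, 45363734 to 45530013, plus strand) was measured at 24.5, 24.0 and 26.2 CPM in the siCONTROL libraries, 25.6, 26.2 and 23.6 in those of siKEAP1, 35.1, 34.1 and 33.6 in those of siCCNF and 33.5, 29.9 and 34.3 in those of siKEAP1/siCCNF. All CCNF-depleted libraries lay above all others, and siKEAP1 overlapped with siCONTROL. The log2 fold change was 0.01 (SE 0.077, adjusted p = 0.90) after siKEAP1, 0.46 (SE 0.076, adjusted p = 0.00025) after siCCNF and 0.38 (SE 0.076, adjusted p = 0.0011) after siKEAP1/siCCNF in edgeR. A processed pseudogene on the opposite strand, Gm6807, overlaps Btrc and held 75 to 269 counts per library against 443 to 1252 for Btrc. Gm6807 was itself higher after siKEAP1 (log2 fold change 0.78, adjusted p = 0.035) and siKEAP1/siCCNF (0.97, adjusted p = 0.010 in edgeR). After siCCNF it was at 0.54 and was not called (adjusted p = 0.12 in edgeR). Its part in the values of Btrc was not tested.

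**Figure D3:**
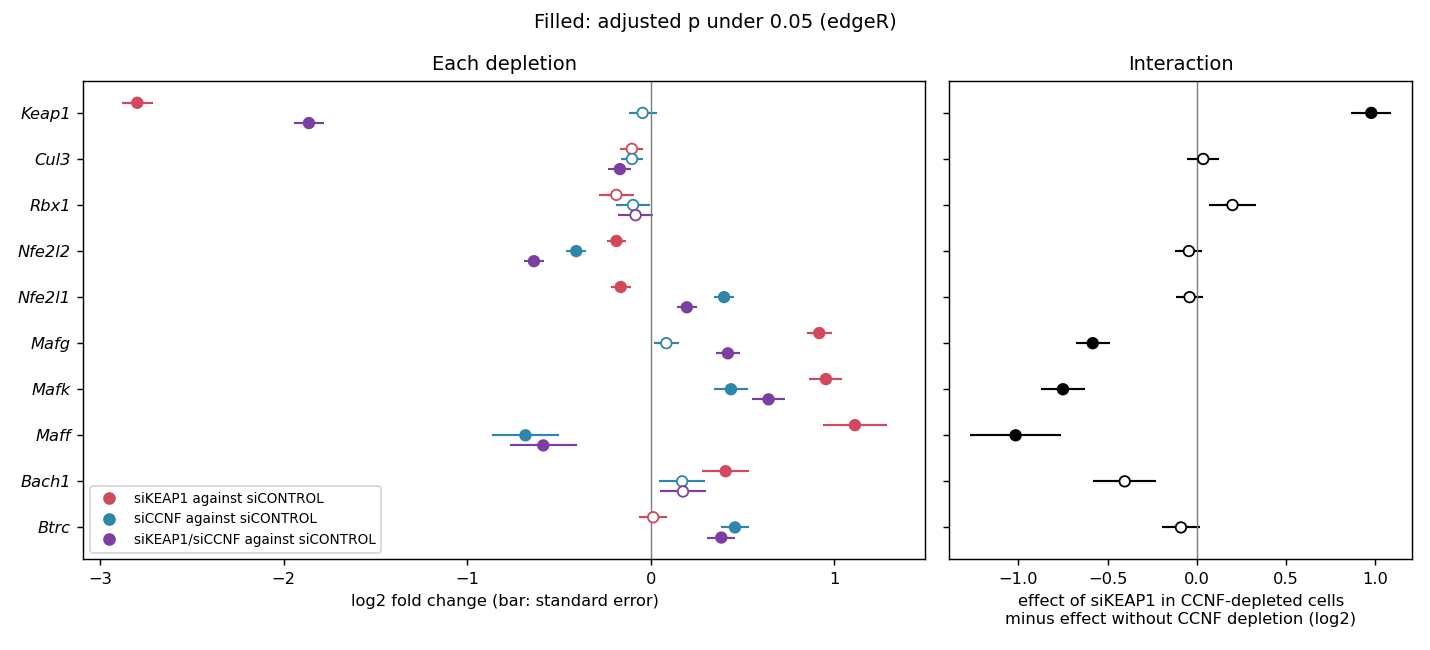
Left, log2 fold change of each regulator against siCONTROL (horizontal axis) after siKEAP1, siCCNF and siKEAP1/siCCNF; the 3 comparisons share the siCONTROL libraries. Right, the interaction on the log2 scale. Bars are SEs and filled points have an adjusted p under 0.05 in edgeR. The 3 small MAF genes are filled at -0.58, -0.75 and -1.02 on the right, and Keap1 at 0.98.

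Counted over the 10 regulators at an adjusted p under 0.05 in edgeR, 4 were higher and 3 lower after siKEAP1, where 20.4% of all genes tested were higher and 20.2% lower. After siCCNF 3 were higher and 2 lower, beside 22.5% and 25.5% of all genes, and after siKEAP1/siCCNF 4 were higher and 4 lower, beside 20.6% and 23.6%. These 3 comparisons share the siCONTROL libraries. Against siKEAP1, the double depletion had 3 regulators higher and 4 lower, beside 24.1% and 26.9% of all genes. Against siCCNF it had 1 higher (Mafg) and 3 lower (Keap1, Nfe2l2 and Nfe2l1), beside 3.00% and 2.19%. The interaction was called for 1 regulator above 0 and 3 below, beside 10.6% and 10.5%. Keap1, the siRNA target, is in all these counts except the one after siCCNF. It is among the lower regulators after siKEAP1, after siKEAP1/siCCNF and against siCCNF, where its call was set by the treatment. It is also among the higher against siKEAP1 and is the 1 above 0 in the interaction, as it was depleted less in the double-depleted cells. At a further threshold of 2-fold, siKEAP1 changed 2 of the regulators (Keap1 and Maff), siKEAP1/siCCNF 1 against siCONTROL (Keap1) and siCCNF 0, where edgeR at an unadjusted p under 0.05 and DESeq2 also gave 0. The share of all genes passing the 2-fold threshold was not computed, so these numbers are not read as many or few. The median log2 fold change of the regulators against siCONTROL was -0.04, 0.02 and 0.05 after siKEAP1, siCCNF and siKEAP1/siCCNF, while the median of all genes lay within -0.01 to 0.01 in all comparisons.

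The wider pathway was followed in 58 further genes, of which 57 were tested (Nrl was not). They comprise the machinery that activates cullins, other ligase routes to NRF2, proteins that bind KEAP1, other CNC and MAF factors, NRF1 processing, and coregulators and kinases. After siKEAP1 8 were higher and 13 lower, after siCCNF 7 and 10, and after siKEAP1/siCCNF 8 and 10, with medians of -0.05, 0.03 and 0.03 on the log2 scale. These counts are 12.3 to 14% higher and 17.5 to 22.8% lower, which is near or below the shares of all genes given above. Between siKEAP1/siCCNF and siKEAP1 14 were higher and 13 lower (24.6% and 22.8%, beside 24.1% and 26.9% of all genes). Between siKEAP1/siCCNF and siCCNF 1 was higher (Sqstm1, 1.75% beside 3.00%). The interaction was called for 2 above and 5 below 0 (3.51% and 8.77%, beside 10.6% and 10.5%). Without both libraries that followed gene length, 29 of the 57 were called after siCCNF and 18 in the interaction, beside 54.6% and 30.9% of all genes in that setting. The count after siKEAP1 was 12 without siKEAP1 library 1 or 3, where 35.4% and 33.4% of all genes were called. The plot of the pathway lists shows how the single genes were spread.

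Among the binders of KEAP1, Sqstm1 encodes p62, the autophagy receptor that sequesters KEAP1. It was measured at 467, 417 and 421 CPM in the siCONTROL libraries, 922, 938 and 910.5 in those of siKEAP1, 287, 315 and 306 in those of siCCNF and 382, 397 and 429.6 in those of siKEAP1/siCCNF. Sqstm1 rose after siKEAP1 (log2 fold change 1.09, SE 0.067, adjusted p = 5.74e-08), fell after siCCNF (-0.52, SE 0.067, adjusted p = 3.06e-05) and had an interaction of -0.67 (SE 0.094, adjusted p = 0.00028 in edgeR). Palb2, a partner of BRCA2 that binds KEAP1, fell after siCCNF (-0.71) and siKEAP1/siCCNF (-0.58), and Amer1, another binder, fell after siKEAP1 (-0.50), a call lost without siCONTROL library 2 or 3 or siKEAP1 library 2 or 3 (-0.50 to -0.39).

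Trip12, a HECT-type ubiquitin ligase, was measured at 187, 297 and 305.5 CPM in the siCONTROL libraries, 315, 319 and 328 in those of siKEAP1, 287, 297 and 307 in those of siCCNF and 313, 306 and 215 in those of siKEAP1/siCCNF. The low values were those of both libraries that followed gene length. None of its differences from siCONTROL passed the test, although without a filter on low counts the one after siKEAP1 did (0.27, adjusted p = 0.040 in edgeR). The log2 fold change was 0.28 with siKEAP1, 0.17 with siCCNF and 0.08 with both siRNAs, and 0.08, -0.02 and 0.03 without these 2 libraries. Fbxw11, the paralog of Btrc, stood at 127 ± 6.31 CPM (SD, n = 3) with siCONTROL, 117 ± 3.55 with siKEAP1, 139 ± 3.98 with siCCNF and 138 ± 11 with both siRNAs. Against siCONTROL no difference of Fbxw11 was called, and against siKEAP1 the double depletion was higher by 0.24 on the log2 scale (adjusted p = 0.011 in edgeR), which was lost without siKEAP1/siCCNF library 1 (0.20). Without both libraries that followed gene length, Fbxw11 was also called after siKEAP1 (-0.16) and siKEAP1/siCCNF (0.14). Gsk3b, a kinase that creates the β-TrCP degron in NRF2, fell by 0.67 on the log2 scale after siKEAP1/siCCNF and by 0.56 between siKEAP1/siCCNF and siKEAP1. Its mean level was 121 CPM with siCONTROL, 112 with siKEAP1, 90.7 with siCCNF and 76.0 with both siRNAs. Without both libraries that followed gene length, Gsk3b was called lower after siKEAP1 (-0.25), siCCNF (-0.54) and siKEAP1/siCCNF (-0.65). Between siKEAP1/siCCNF and siKEAP1 its log2 fold change was then -0.40.

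Among the related factors, Maf, a large MAF protein, fell by 1.25 on the log2 scale after siKEAP1 (adjusted p = 2.22e-06) and was higher by 1.13 in siKEAP1/siCCNF than in siKEAP1 cells (adjusted p = 3.88e-06), with an interaction of 1.26 (adjusted p = 0.00015 in edgeR). Bach2, the relative of Bach1, rose by 1.58 after siCCNF (adjusted p = 0.0010) and by 1.02 after siKEAP1/siCCNF (adjusted p = 0.020), and was 1.40 higher in siKEAP1/siCCNF than in siKEAP1 cells, from 2.12 ± 0.870 CPM in siCONTROL cells to 6.27 ± 0.588 after siCCNF. The rise of Bach2 after siKEAP1/siCCNF was lost without siCONTROL library 1 (0.69) or siKEAP1/siCCNF library 1 (0.71). Nfe2, at 0.808 ± 0.227 CPM in siCONTROL cells and thus near the limit of detection, fell after siKEAP1 (-1.62) and siKEAP1/siCCNF (-1.26), and these calls were lost without any 1 of 3 and 8 libraries (-1.57 to -1.40 and -1.35 to -0.87). Fbxw7, the receptor of an SCF ligase that targets NRF1, rose by 0.71 after siCCNF and 0.63 after siKEAP1/siCCNF, with an interaction of -0.48 that was lost without any 1 of 9 libraries (-0.50 to -0.38). The log2 fold change of Fbxw7 after siKEAP1 was 0.41. In the cullin machinery, the NEDD8-conjugating enzyme Ube2f rose by 0.49 after siCCNF, and the COP9 signalosome subunit Cops7b rose by 0.58 after siKEAP1/siCCNF and by 0.54 over siKEAP1. The interaction of Gps1, another subunit of that complex, was 0.31, and was lost without siKEAP1 library 2 or 3 or siCCNF library 3 (0.29 to 0.31). The kinases Prkcd and Fyn rose after siKEAP1 (0.57 and 0.41), Fyn was lower by 0.78 in siKEAP1/siCCNF than in siKEAP1 cells with an interaction of -0.44, and Rxra, a nuclear receptor that inhibits NRF2, fell after siCCNF (-0.61).

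**Figure D4:**
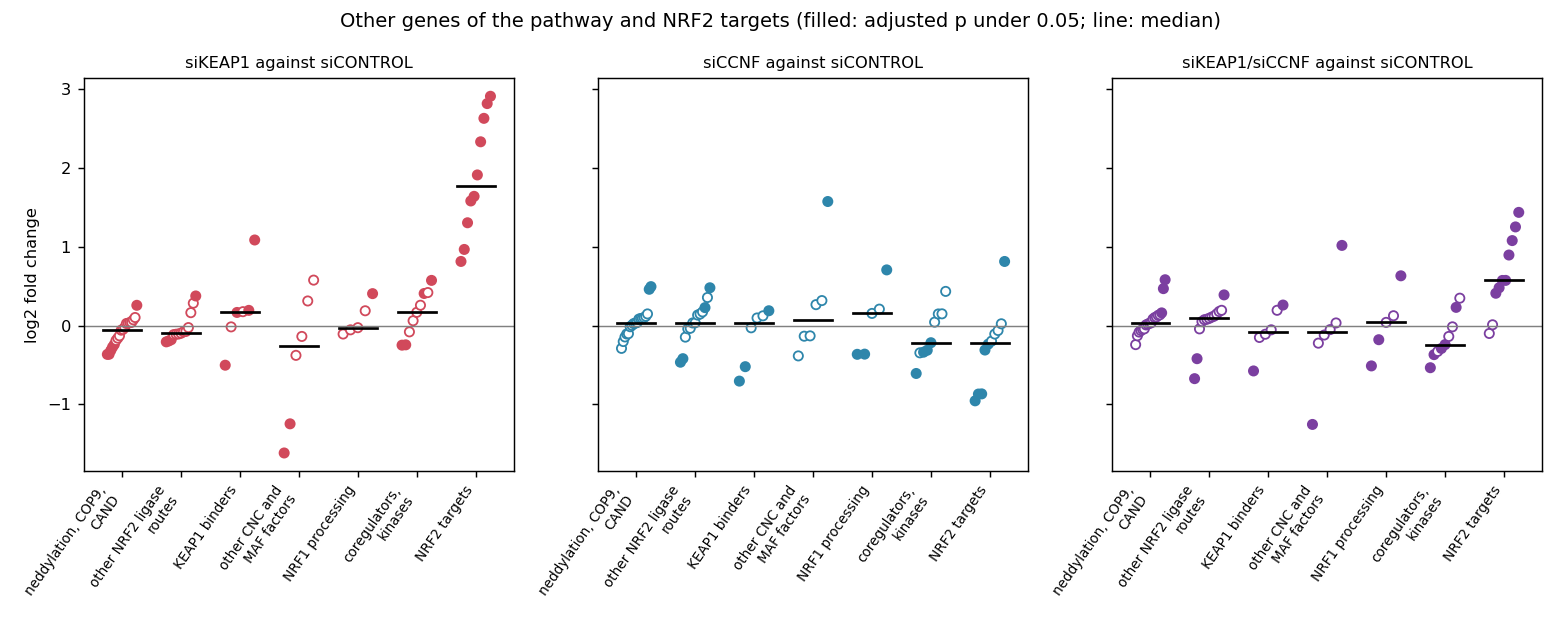
Log2 fold change (vertical axis) of the other pathway genes and of 10 NRF2 targets, by list (horizontal axis), in the 3 comparisons with siCONTROL. Points are genes, filled where the adjusted p in edgeR was under 0.05, and lines are medians. The targets have a median of 1.78 with siKEAP1, -0.22 with siCCNF and 0.57 with both siRNAs, and the medians of the other lists lie between -0.26 and 0.17.

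As the output of the pathway, 10 established NRF2 targets were set beside the regulators. Some of them were chosen by the study itself for measurement in these cells, so their direction is no independent evidence. After siKEAP1 10 of 10 were higher, with a median log2 fold change of 1.78, beside 20.4% of all genes tested. After siCCNF 1 was higher and 5 lower (median -0.22), beside 22.5% and 25.5% of all genes. After siKEAP1/siCCNF 8 were higher (median 0.57), beside 20.6%, and the interaction was called below 0 for 9, beside 10.5%. The double depletion had 10 of 10 lower against siKEAP1 and 10 of 10 higher against siCCNF, beside 26.9% and 3.00%. Nqo1, a quinone reductase, was at 56.2 ± 0.597 CPM (SD, n = 3) with siCONTROL, 397 ± 16.2 with siKEAP1, 30.8 ± 0.776 with siCCNF and 152 ± 9.0 with both siRNAs. Gclc, the catalytic subunit of glutamate-cysteine ligase, was at 50.2 ± 2.55, 378 ± 5.72, 42.7 ± 4.56 and 106 ± 11.1 CPM in the same order. Its fall after siCCNF (log2 fold change -0.24, adjusted p = 0.046 in edgeR), 1 of the 5, was no longer called without any 1 of 8 libraries (-0.24 to -0.16), without a filter (-0.23), with at least 10 counts in every library (-0.22) or in a fit of the compared groups only (-0.23). Hmox1, the heme oxygenase that BACH1 represses, was the target that rose after siCCNF, from 43.8 ± 1.63 to 77.0 ± 6.72 CPM (log2 fold change 0.81, SE 0.080, adjusted p = 3.05e-06 in edgeR).

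Over the 12 libraries the group means of log2 CPM spanned more than 1 for Keap1 (2.79) and Maff (1.82), and for these the genes most alike were sought by the root mean square difference between centred log2 CPM values. Maff was closest to Spred3 (0.18), Layn (0.20) and Upp1 (0.20). Layn, for example, stood at mean levels of 41.5, 91.2, 24.4 and 28.8 CPM in siCONTROL, siKEAP1, siCCNF and siKEAP1/siCCNF cells. Keap1 was closest to Ttn (0.37), Klhl41 (0.43) and Mrpl20 (0.44), of which Ttn and Klhl41 are genes of striated muscle. Mrpl20 stood at 57.7, 13.5, 62.3 and 31.3 CPM in the same order.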

How the data were processed

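RNA of 12 C2C12 libraries (4 siRNA groups of 3 biological replicates, grouped by the sample labels, cells transfected with 30 nM siRNA for 48 h) was sequenced after poly(A) selection. The authors deposited 1 table of 54532 genes with counts of reads per gene, not normalized, and FPKM values made by their sequencing provider. It also holds the authors' own fold changes and p-values, which were not used. The submitters' processing notes name HISAT2 and GRCm39, but 98.3% of the gene coordinates shared with GENCODE M21, and those of all 10 regulators, equal GRCm38, which is given here. The counting tool, and its use of strand and of reads shared with overlapping genes or pseudogenes, are not given in the sources used here. The paper gives 10% serum and the labels 5%. Whether 30 nM was the total dose in the double depletion is not given in the sources used here.

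Counts were fitted with edgeR 4.0.16 in R 4.3.3 (filterByExpr, 15122 genes; TMM; quasi-likelihood test, 4 group means, all libraries), with Benjamini-Hochberg adjustment over all genes tested and calls at an adjusted p under 0.05. CPM values use TMM-scaled totals, and log2 CPM a prior count of 2. The totals of 18464209 to 37743198 counts set the precision of low genes. FPKM values served for levels between genes. Alternatives were DESeq2 1.42.0, total library sizes, no filter beyond 1 count, at least 10 counts in every library, a replicate block, limma 3.58.1 on log2(FPKM + 1), compared groups only, a 2-fold threshold, and each library left out; leaving out siCONTROL library 1 and siKEAP1/siCCNF library 3 together was added after seeing the data. The code was tested on simulated data. Promoter windows came from RefSeq.

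The regulators, lists and tests were chosen with earlier results of these data known. Named are the 10 regulators, Ccnf, Trip12, Sqstm1, Fbxw11, Nqo1, Gclc, the 3 largest called rises and falls of the pathway lists in each comparison, NRF2 targets that moved against the majority, and, for Keap1 and regulators whose group means span more than 1 on the log2 scale, the 3 genes most alike. Sirt7, Gm16754 and Gm6807 were named because they overlap a regulator.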

Additional observations from a re-analysis of the deposited data

Results flagged for a closer look

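For 4 of the 10 regulators the effect of siKEAP1 differed between cells with and without depletion of CCNF, as tested by the interaction term in edgeR with Benjamini-Hochberg adjustment. The effect in CCNF-depleted cells minus that without CCNF depletion was -1.02 for Maff (log2, adjusted p = 0.012), -0.75 for Mafk (adjusted p = 0.00097), -0.58 for Mafg (adjusted p = 0.00082) and 0.98 for Keap1 (adjusted p = 6.99e-05). Each kept its call without any 1 library. Keap1 mRNA was 12.6 ± 0.279 CPM (SD, n = 3) after siKEAP1 and 24.1 ± 2.56 CPM after siKEAP1/siCCNF, and the part of this weaker depletion in the interactions of the small MAF genes was not tested.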

How the results depend on the processing

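Of the 60 differences of the regulators (10 genes in 6 comparisons), 39 kept their direction and their side of the threshold under every alternative other than the 2-fold threshold, as did 34 of 47 named values of other genes. The 2-fold threshold was applied to the counts, and the share of all genes passing it was not computed. The counts of regulators include Keap1, the siRNA target. The regulators called changed numbered 7, 5, 8, 7, 4 and 4 in the order siKEAP1, siCCNF and siKEAP1/siCCNF against siCONTROL, siKEAP1/siCCNF against siKEAP1 and against siCCNF, and the interaction. With 1 library left out they numbered 4 to 7, 5, 6 to 8, 6 to 7, 1 to 4 and 4, and with a further threshold of 2-fold 2, 0, 1, 1, 1 and 1 (edgeR). Between siKEAP1/siCCNF and siCCNF they were 2 with total library sizes, 2 without a filter and 2 in a fit of the compared groups only. The pathway genes called (21, 17, 18, 27, 1 and 7) numbered 12 to 22, 14 to 22, 15 to 21, 23 to 37, 1 to 4 and 4 to 8 with 1 library left out, and 3, 1, 2, 3, 0 and 1 at 2-fold, where for the 0 edgeR gave 1 at an unadjusted p under 0.05 and DESeq2 0. Without both libraries that followed gene length they were 29 after siCCNF, 5 between siKEAP1/siCCNF and siCCNF, and 18 in the interaction, where 54.6%, 14.1% and 30.9% of all genes were called. The fit of the compared groups gave 11 after siKEAP1/siCCNF, and DESeq2 4 between siKEAP1/siCCNF and siCCNF. The cause of these shifts was not tested. After siKEAP1, 35.4% of all genes were called without siKEAP1 library 1 and 33.4% without siKEAP1 library 3. For the other single libraries left out, and the other fits here and below without a share, the share of all genes was not computed. Those counts are thus not read as many or few.

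Same-numbered libraries did not deviate together (correlations of -0.27 to 0.20 across genes), so the numbers were not taken as pairs. With the replicate block, 2 regulators were called between siKEAP1/siCCNF and siCCNF, and Cul3 lost its call against siCONTROL (-0.17), as did Nfe2l2 (-0.23) and Nfe2l1 (-0.20) against siCCNF. The block changed no other call of a regulator.

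The values that changed sign were all uncalled. Without both libraries that followed gene length these were Btrc after siKEAP1 (-0.0099), Rbx1 after siCCNF (0.015) and against siCCNF (-0.087), the interaction of Nfe2l1 (0.0041) and Trip12 after siCCNF (-0.022). With 1 library left out they were Btrc after siKEAP1 (-0.024 to 0.056), Keap1 after siCCNF (-0.074 to 0.0022), Rbx1 after siCCNF (-0.16 to 0.014), after siKEAP1/siCCNF (-0.18 to 0.019) and against siCCNF (-0.087 to 0.070), and Trip12 after siCCNF (-0.022 to 0.29) and siKEAP1/siCCNF (-0.12 to 0.23). In siKEAP1/siCCNF against siCCNF, Maff ranged from -0.096 to 0.35 and Bach1 from -0.096 to 0.15 with 1 library left out. Bach1 was there at -0.0020 without a filter, -0.0078 in limma and -0.00025 in the fit of the compared groups. Without a filter the calls of Nfe2l2 after siKEAP1 (-0.20) and of Nfe2l1 after siKEAP1 (-0.17) and siKEAP1/siCCNF (0.20) were lost. Both calls of Nfe2l1 were also lost in the fit of the compared groups (-0.16 and 0.20). The calls of Cul3 after siKEAP1/siCCNF, and of Nfe2l2 and Nfe2l1 against siCCNF, were lost in both settings. Maff, at 5.82 CPM in its lowest library, had the largest standard errors of the regulators.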
